A study of Mus musculus with 21 samples.

Results

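The mitosis genes followed here are 51 genes that act between entry into mitosis and the final separation of the daughter cells. They were the rows of the deposited read count table whose Ensembl identifier carries 1 of 51 listed mouse symbols, 51 of 54446 rows, and all 51 passed the filter on low counts that 21100 rows passed. The study sorted LT-HSC (long-term haematopoietic stem cells) and 2 kinds of multipotent progenitor, MPP2 and MPP3, from the bone marrow of C57BL/6 mice aged 12 weeks and sequenced their RNA. Phf6, an X-linked gene for a PHD-finger chromatin protein, was either intact (WT, wild type) or knocked out (KO), and no group carried another labelled allele or treatment. There were 2 WT and 3 KO libraries of LT-HSC, 4 WT and 4 KO of MPP2, and 4 WT and 4 KO of MPP3, each from 100 to 200 cells sorted on a lineage cocktail, Kit, Sca-1, CD150 and CD48. The labels do not name the KO allele or a Cre driver, and do not say which libraries share a mouse. P-values here therefore measure the spread between libraries, part of which may be technical.

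Mitosis is driven by cyclin B and its kinase Cdk1, which condense the chromosomes, break down the nuclear envelope and start the bipolar spindle. Kinetochores on the centromeres catch spindle microtubules, the spindle checkpoint holds the cell until every chromosome is attached, and the anaphase-promoting complex then releases the sister chromatids so that the midzone and the contractile ring can divide the cell. Transcripts of these genes build up together late in the cell cycle. In resting cells they are held down by the DREAM complex, and in dividing cells B-Myb and Foxm1 activate them through the same promoter element, the CHR (cell cycle genes homology region). Most LT-HSC are at rest, whereas multipotent progenitors divide more often.

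The libraries held 18892723 to 31611366 counts, and the mitosis genes took 0.285% to 1.16% of them. The lowest count of any member in any library was 39. Phf6 lay at 54.4 to 209.7 CPM (counts per 1000000 after scaling) in the WT libraries and at 2.45 to 13.3 in the KO libraries, so every library matched its genotype label on this gene. The Y-linked gene Ddx3y was at 0 CPM in the lowest and at 107.6 CPM or more in the highest library of each group, so groups appear to mix the sexes. Sex was not a term in the fit, and its part was not tested. LT-HSC markers (7 genes) summed to 693 to 994 CPM in LT-HSC and to 120 to 303 in MPP2 and MPP3, apart from KO MPP3 2 at 702. Slamf1, which encodes CD150, was at 9.18 CPM or more in each LT-HSC and MPP2 library and at 1.99 or less in each MPP3 library, and Cd48 was at 19.1 or less in LT-HSC and at 165 or more elsewhere. The erythroid and megakaryocyte regulator Gata1 was at 41.3 to 383.1 CPM in MPP2, 0.07 to 42.2 in MPP3 and 20.3 to 83.2 in LT-HSC. The granulocyte gene Mpo was at 253.2 to 3301.2 CPM in MPP3, 21.6 to 2318.6 in MPP2 and 8.19 or less in LT-HSC. MPP2 and MPP3 thus overlapped on both genes. Elane, also on the list of MPP3 markers, had higher means in MPP2 (WT 330.6, KO 611.5 CPM) than in MPP3 (WT 185.1, KO 150.5 CPM). Immunoglobulin transcripts took 48.0% of counts in KO MPP2 1 and 26.8% in KO MPP3 1 (at most 5.01% elsewhere), and ribosomal RNA took 21.2% in KO MPP3 2 (at most 2.76% elsewhere). Counts of members called are given below with and without these 3 libraries. Shares of all genes called are not given for the fits without them, so a changed count there may not concern the members alone.

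The promoters of the mitosis genes are shown first because the element they share is the one through which the family is known to be switched together. RefSeq promoter windows (GRCm38.p6, 250 bases before to 50 after the start) matched 43 members by symbol, with 47 promoters between them. Aurkb, Ccna2, Foxm1, Incenp, Kif20a, Smc4, Spc24 and Tpx2 had no matching window. A CHR was searched as TTTGAA or TTCGAA and an NF-Y site as CCAAT, each on both strands, and the motifs overlapped in 0 member promoters. A CHR stood in 36 of the 47 member promoters (76.6%) against 19.2% of all 32851 windows, a CCAAT in 78.7% against 37.4%, and both in 66.0% against 7.52%. Around a CHR, 30 bases are printed for 6 genes described below, with the CHR in capitals:
Cdk1: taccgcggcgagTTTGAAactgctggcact
Cenpa: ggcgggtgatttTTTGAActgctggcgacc
Ube2c: ccgccgcccgcgTTTGAAttgcaaccctcc
Kif22: ccgcttctctctTTTGAAttaccggggccc
Kif20b: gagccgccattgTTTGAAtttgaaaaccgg
Kif15: gatggccgcagaTTTGAAtttggcgcccca
The Cdk1 site is read on the minus strand at chr10:69352910-69352939 and begins 15 bases before the start (at -15). The Cenpa site lies on the plus strand at chr5:30666890-30666919, at 16. The Ube2c site is read on the minus strand at chr2:164769888-164769917, opposite to its gene, at -29. The Kif22 site is read on the plus strand at chr7:127042420-127042449, opposite to its gene, at -17. The Kif20b site lies on the plus strand at chr19:34922353-34922382, at 7, and a second TTTGAA follows it directly. The Kif15 site is read on the minus strand at chr9:122951050-122951079, opposite to its gene, at -19.

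Of these 6 promoters, those of Cdk1, Cenpa, Ube2c and Kif22 also hold CCAAT boxes (ATTGG when read on the other strand), and those of Kif20b and Kif15 hold none in the window. The boxes are shown for Cdk1, the mitotic kinase, and Ube2c, the member with the largest difference between populations, with CCAAT (as ATTGG) and CHR in capitals:
Cdk1: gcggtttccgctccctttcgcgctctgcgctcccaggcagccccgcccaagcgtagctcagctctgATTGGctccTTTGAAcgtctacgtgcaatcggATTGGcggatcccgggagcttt
Ube2c: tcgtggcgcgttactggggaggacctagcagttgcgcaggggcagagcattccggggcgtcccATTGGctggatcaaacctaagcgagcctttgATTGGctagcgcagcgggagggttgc
The Cdk1 stretch is on the minus strand at chr10:69352939-69353058 and runs from -146 to -27, with CCAAT boxes at -80 and -48 and another CHR at -71. The Ube2c stretch is on the plus strand at chr2:164769778-164769897 and runs from -151 to -32, with CCAAT boxes at -88 and -57. In both promoters the boxes lie upstream of the CHR nearest the start.

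Member CHRs clustered at the start. They began within 50 bases of it in 70.2% of member promoters and in 5.31% of all windows. Other mitosis genes (75 on a separate list) had a CHR in 42.3% of their promoters, S phase genes in 16.7% and genes of G1 control in 6.67%. By gene, 34 of the 43 matched members had a CHR, 33 a CCAAT and 29 both. Birc5, Ccnb1, Cenpe, Cenph, Cenpk, Mad2l1, Ncaph, Nuf2 and Nusap1 had no CHR letters in the window, and of these Ccnb1, Cenpe, Cenph and Cenpk had a CCAAT. Members with and without a CHR had near-equal median differences between WT MPP2 and WT LT-HSC (log2 1.60 in 34 and 1.54 in 9).

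**Figure D1:**
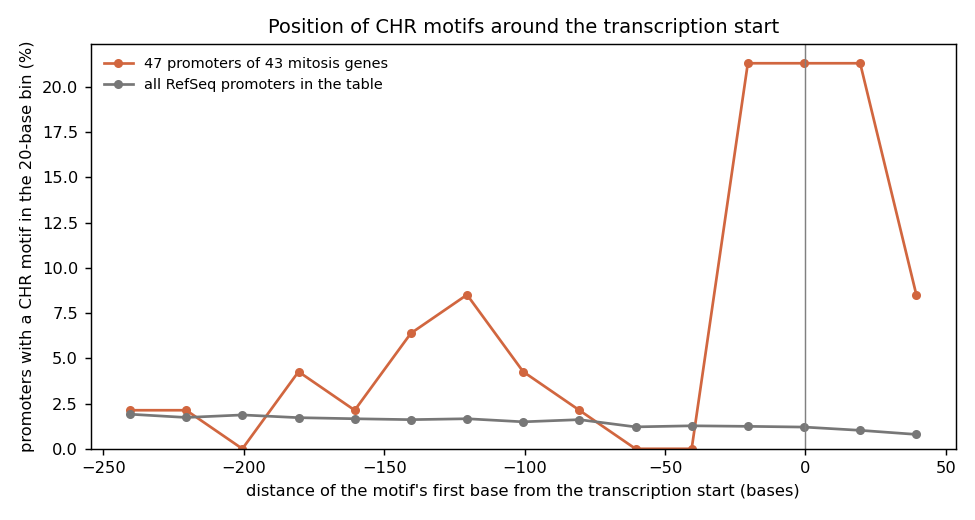
Share of promoters (y axis, %) with a CHR motif beginning in each 20-base bin, against the distance of the motif's first base from the transcription start (x axis, bases), for 47 promoters of 43 mitosis genes and for all 32851 windows. Each of the 3 bins from -30 to 29 holds a CHR in 21.3% of member promoters, against 1.02% to 1.24% of all windows.

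Summed over the 51 genes, mitosis transcripts were most abundant in MPP2 and least abundant in LT-HSC and WT MPP3. The sum was 2893 and 3052 CPM in the WT LT-HSC libraries and 3557, 4583 and 2537 CPM in KO LT-HSC. In WT MPP2 it was 8254, 9088, 7775 and 8115 CPM, and in KO MPP2 7249.7, 11738, 8079 and 7753 CPM. Every MPP2 library thus lay above every LT-HSC library of either genotype. In WT MPP3 the sum was 3095, 4215, 4473 and 2550.5 CPM, and in KO MPP3 5246, 3492.5, 7249 and 4668 CPM. The KO MPP3 libraries overlapped the WT ones at the lower end, and the highest of them was level with the lowest MPP2 library. These are bulk samples, in which more cells in mitosis and more mitotic RNA per cell cannot be told apart.

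**Figure D2:**
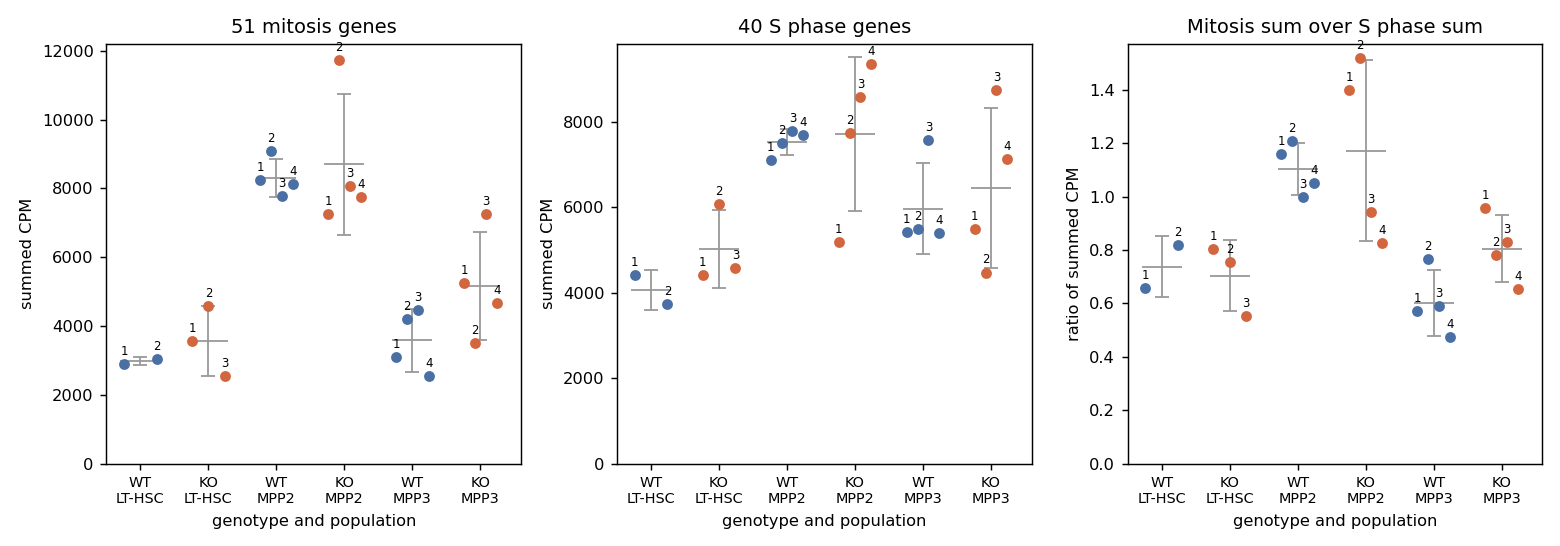
Summed CPM of the 51 mitosis genes (left), summed CPM of 40 S phase genes (middle) and the ratio of the sums (right) on the y axes, by genotype and population on the x axis. Points are libraries with their replicate number (blue WT, orange KO), and grey bars are the mean and SD. The MPP2 libraries hold the highest mitosis sums, and the ratio is 0.828 to 1.52 in MPP2 against 0.473 to 0.957 in the other libraries.

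The order of the group means was nearly the same for all members. For 48 of 51 genes the MPP2 groups had the highest mean levels, the exceptions being Bub1b, Kif23 and Ncapd2. KO MPP3 came next for 47 genes, and WT LT-HSC was lowest for 40. Neighbours in this order overlapped: KO and WT MPP2 in all 51 members, and KO and WT MPP3 in all but Incenp. In 6 members, Ccnb1, Mad2l1, Nuf2, Tpx2, Prc1 and Anln, each of the 8 MPP2 libraries lay above each of the other 13, as in 0.161% of all genes tested. Per kilobase of exon, Ccnb2, a mitotic cyclin, had the highest mean level (136.6 CPM per kilobase over 21 libraries), followed by the condensin subunit Smc4 at 82.3, and Espl1, the separase that cuts cohesin, the lowest at 1.73.

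**Figure D3:**
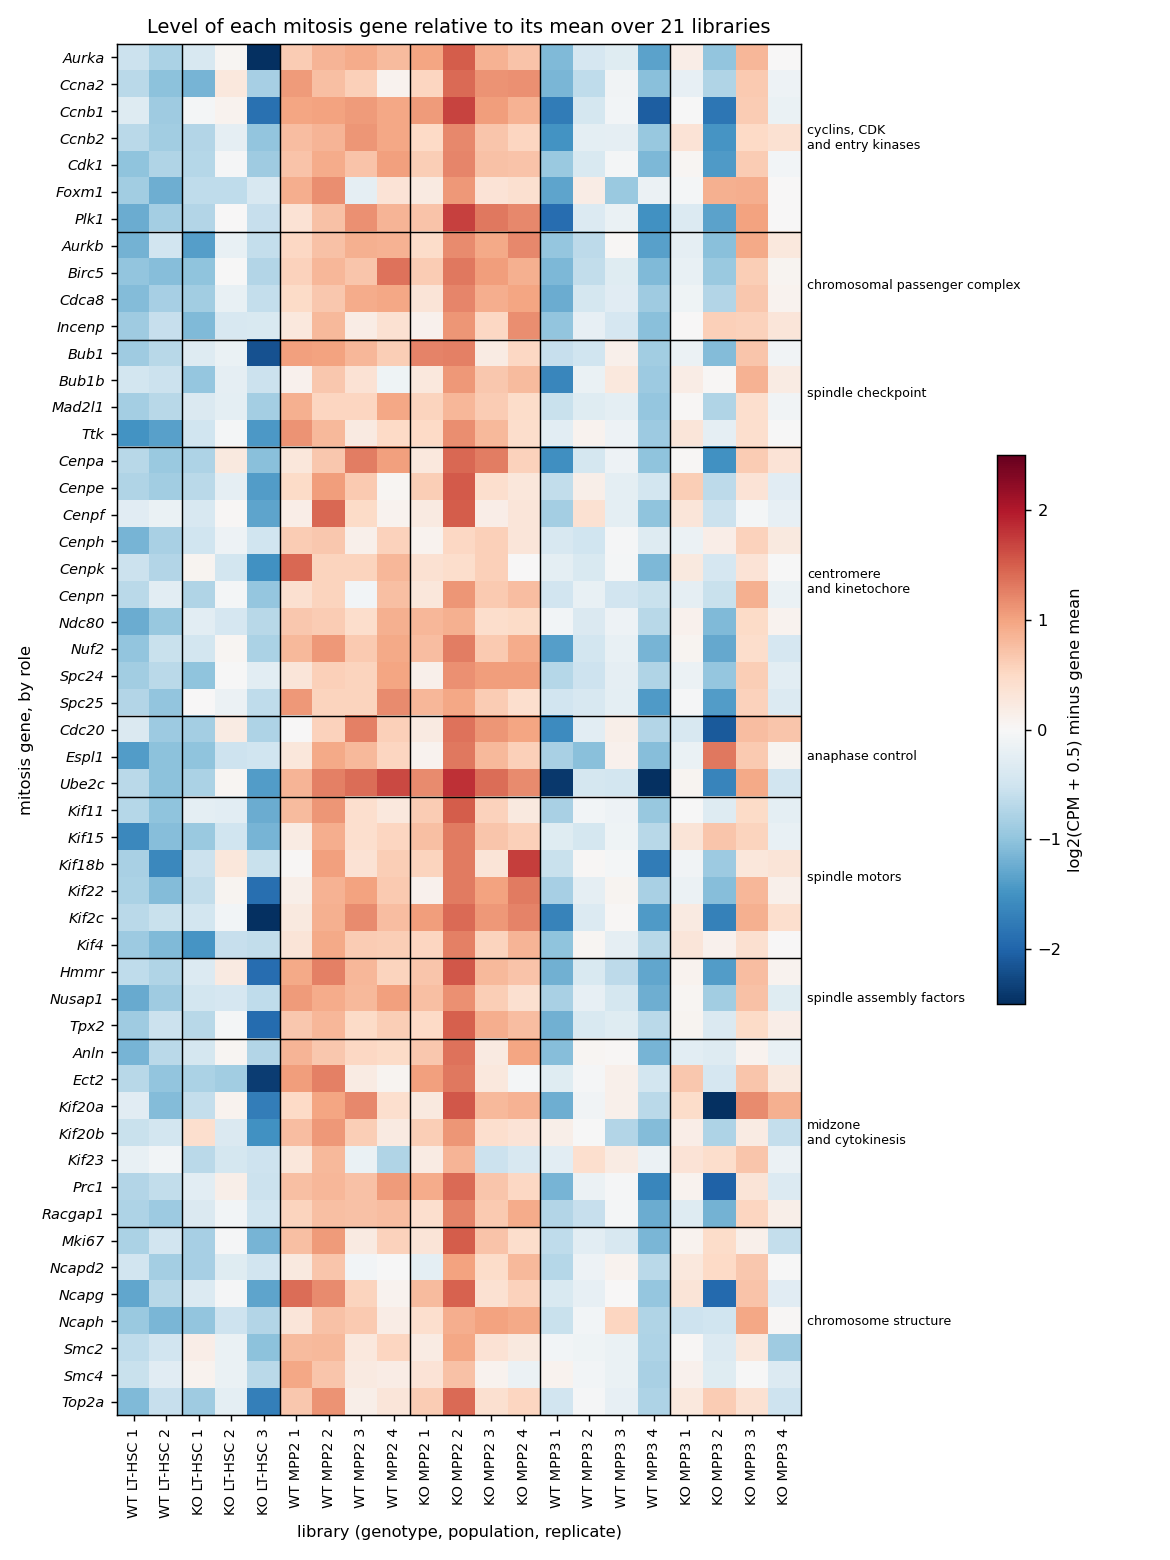
Level of each of the 51 mitosis genes (rows, grouped by role) in each of the 21 libraries (columns, grouped by genotype and population), as log2(CPM + 0.5) minus the gene's mean over all libraries. The 8 MPP2 columns are above the gene mean for nearly all rows, with KO MPP2 2 the highest of its group for 44 genes, and Kif23 is the row with the least contrast.

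Among WT cells, 9 of the 51 mitosis genes were called higher in MPP2 than in LT-HSC. All 51 were fitted higher, with a median log2 difference of 1.56 (2.95-fold) where the median of all genes tested was 0.00. By edgeR with Benjamini-Hochberg adjustment over all genes tested, the 9 were called higher and 0 lower, where 0.365% of all genes were called higher. Every MPP2 library lay above both LT-HSC libraries for 50 members, a pattern that 11.6% of all genes showed. The call rests on 2 LT-HSC libraries: without either of them 0 members passed, although the median stayed at 1.60 and 1.54. With the 3 immunoglobulin-rich or rRNA-rich libraries left out 18 members passed, and with DESeq2 40 did, where 3.13% of the genes to which it gave an adjusted p were called higher. Both WT LT-HSC libraries have title numbers of 64 or less, so the 2 WT MPP2 libraries of 162 or more have no LT-HSC counterpart.

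The genes called spanned the kinetochore, the checkpoint, the passenger complex and the spindle. Cenph, a subunit of the constitutive centromere network, was at 27.0 and 34.7 CPM in WT LT-HSC and at 94.5, 97.5, 66.6 and 90.9 CPM in WT MPP2. The groups were far apart, with a log2 difference of 1.5 (SE 0.243, edgeR adjusted p = 0.00868). Kif15, a spindle motor that helps keep the poles apart, was at 17.1 and 25.1 CPM in LT-HSC and at 61.6, 100.6, 71.4 and 77.3 CPM in MPP2, 1.88 higher on the log2 scale (SE 0.308, edgeR adjusted p = 0.00868). Nusap1, which bundles microtubules near the chromosomes, was at 61.9 and 79.9 CPM against 310.6, 283.2, 262.9 and 304.1 CPM, a difference of 2.03 (SE 0.362, edgeR adjusted p = 0.0162). For each of these genes the lowest MPP2 library exceeded the highest LT-HSC library. Ttk, the checkpoint kinase also called Mps1, had the largest difference, 2.17 (SE 0.392, edgeR adjusted p = 0.0175), from 11.9 and 13.3 CPM to between 40.7 and 76.1 CPM. The other members called were Ndc80 (1.77), the microtubule-binding arm of the kinetochore; Mad2l1 (1.52), the checkpoint protein that blocks Cdc20; Birc5 (1.92) and Cdca8 (1.74), survivin and borealin of the chromosomal passenger complex; and Kif4 (1.68), a chromokinesin.

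By role, the median log2 difference was 1.71 for the 7 genes grouped as cyclins, Cdk1 and entry kinases, among them the activator Foxm1. For the 4 passenger complex genes it was 1.65, and for the 4 checkpoint genes 1.60. It was 1.51 for the 10 centromere and kinetochore genes, 1.96 for the 3 genes of anaphase control and 1.66 for the 6 spindle motors. For the 3 spindle assembly factors it was 1.62, for the 7 genes of the midzone and cytokinesis 1.54 and for the 7 of chromosome structure 1.32. The differences between role groups were not tested. Cdk1 itself was at 98.0 and 117.1 CPM in WT LT-HSC and at 322.7, 376.8, 321.5 and 402.7 CPM in WT MPP2. That is a log2 difference of 1.73 (SE 0.421) with edgeR adjusted p = 0.0672, so the kinase missed the threshold although its groups did not overlap. Smc4, the condensin ATPase, was at 277.3 and 334.7 CPM against 464.4 to 795.8 CPM (0.97, SE 0.298, edgeR adjusted p = 0.140).

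Kif23, the motor of the centralspindlin complex at the midzone, was the exception. It was at 58.4 and 63.1 CPM in WT LT-HSC, 81.2, 117.2, 58.7 and 39.3 CPM in WT MPP2, and 55.2, 89.2, 76.8 and 59.4 CPM in WT MPP3. The 3 populations overlapped, and its log2 difference between WT MPP2 and WT LT-HSC was 0.29 (SE 0.386, edgeR adjusted p = 0.830). Its partner in centralspindlin, Racgap1, was among the members called lower in WT MPP3 than in WT MPP2. Within MPP2, Kif23 was at 76.3 to 119.8 CPM in replicates 1 and 2 of both genotypes and at 39.3 to 58.7 CPM in replicates 3 and 4.

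**Figure D4:**
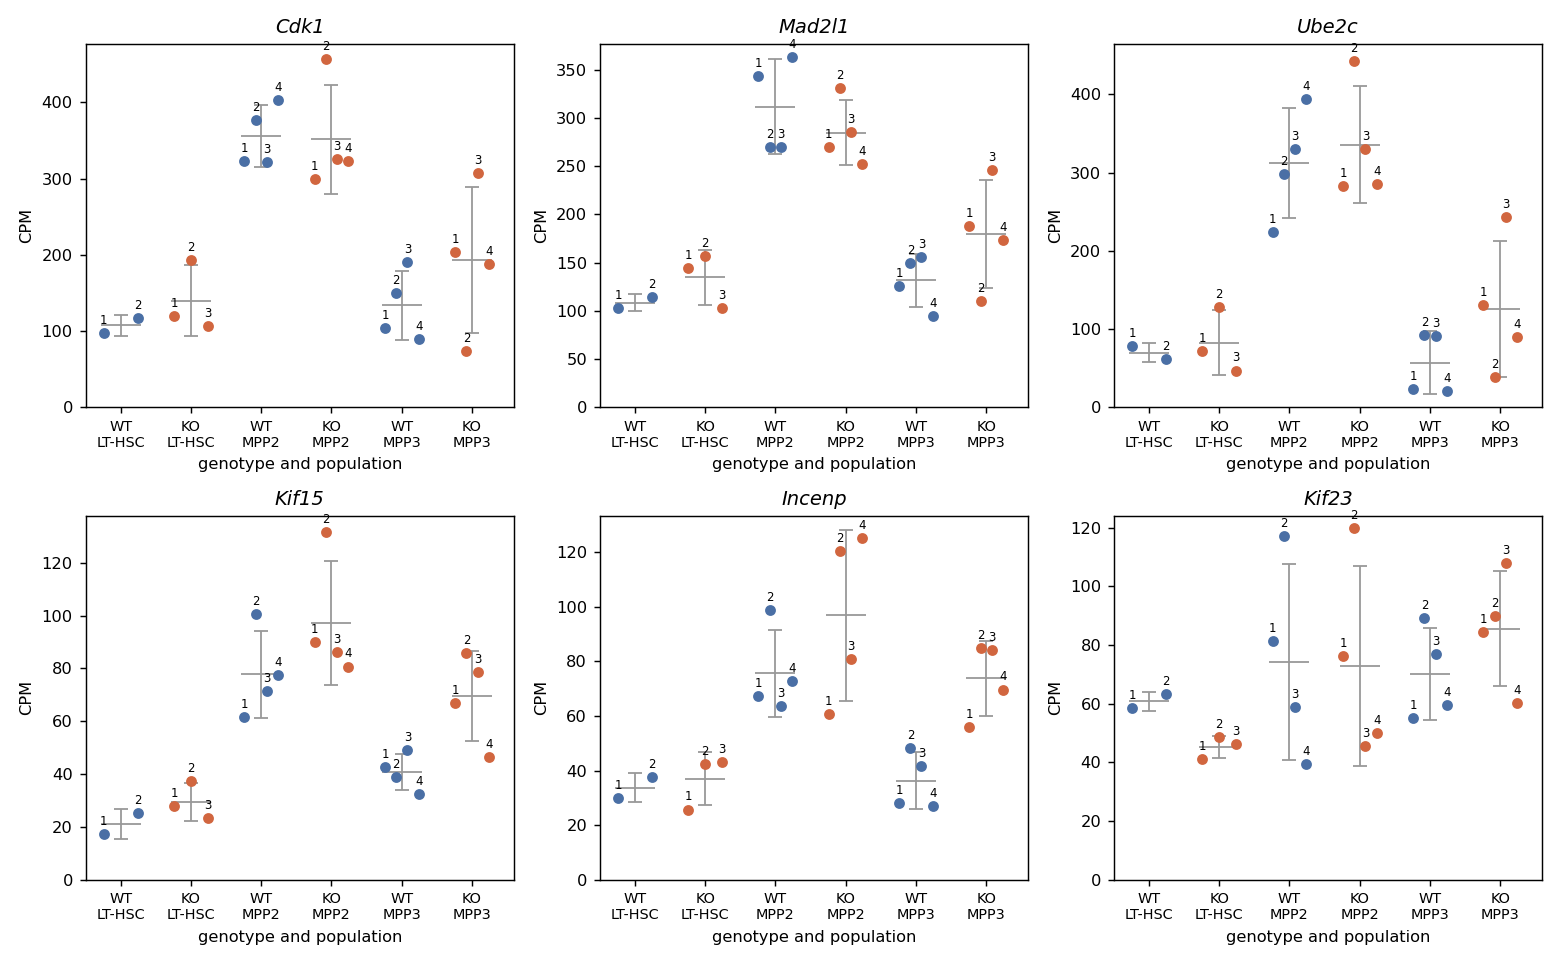
CPM (y axis) of Cdk1, Mad2l1, Ube2c, Kif15, Incenp and Kif23 by genotype and population (x axis). Points are libraries with their replicate number (blue WT, orange KO), and grey bars are the mean and SD. Group means are highest in MPP2 for the first 4 genes, the KO MPP3 libraries of Incenp lie above all WT MPP3 libraries, and Kif23 overlaps between the WT populations.

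In WT cells, 15 of the mitosis genes were lower in MPP3 than in MPP2. All 51 members were fitted lower, with a median log2 difference of -1.21 (all genes tested 0.02), and these 15 were called lower and 0 higher by edgeR with Benjamini-Hochberg adjustment, where 0.981% of all genes were called lower. Each MPP3 library lay below each MPP2 library for 41 members, against 5.33% of all genes. The number called ranged from 1 (without WT MPP3 4) to 12 when 1 library was left out, with 3 without WT MPP2 4 or WT MPP3 1, 6 without WT MPP2 3 or WT MPP3 2, and 7 without WT MPP2 1. It was 27 with the 3 immunoglobulin-rich or rRNA-rich libraries left out and 34 by DESeq2 (3.17% of all genes lower). Among libraries with title numbers of 64 or less the median was -1.33 with 0 called, and among those of 162 or more it was -1.10 with 6 called.

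The largest difference was in Ube2c, the ubiquitin-conjugating enzyme of the anaphase-promoting complex. It was at 224.6, 298.1, 330.4 and 393.6 CPM in WT MPP2 and at 23.1, 92.4, 91.3 and 21.5 CPM in WT MPP3. Ube2c was 2.45 lower in WT MPP3 on the log2 scale (SE 0.519, edgeR adjusted p = 0.0261), and WT MPP3 held 2 libraries near 22 and 2 near 92 CPM. Nusap1 was 1.58 lower (SE 0.273, edgeR adjusted p = 0.00956), at 84.8, 129.3, 110.5 and 63.3 CPM in WT MPP3. Mad2l1, at 343.7, 269.9, 269.8 and 363.2 CPM in WT MPP2 and 125.6, 149.5, 156.2 and 94.8 CPM in WT MPP3, was 1.24 lower (SE 0.217, edgeR adjusted p = 0.0106). Birc5, at 232.5, 275.6, 253.2 and 399.2 CPM against 71.6, 102.1, 125.8 and 72.1 CPM, was 1.64 lower (SE 0.295, edgeR adjusted p = 0.0114). In none of these genes did the WT groups overlap. The other members called lower were Cdca8, Nuf2, Ccnb2, Spc25, Racgap1, Cenph, Cdk1, Cenpk, Hmmr, Mki67 and Kif4, with log2 differences from -1.76 (Hmmr, a spindle assembly factor) to -0.83 (Cenph). Ube2c shares 22.8% of its exon bases with Tnnc2 on the opposite strand and Kif4 15.1% with Pdzd11. The sources used here do not say whether reads were counted by strand, so such reads cannot be assigned with certainty.

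Differences between WT MPP3 and WT LT-HSC were smaller. Of the 51 members, 45 were fitted higher in MPP3, but the median log2 difference was 0.26 (all genes tested 0.03) and 0 members were called by edgeR, where 1.10% of all genes were. At an unadjusted p under 0.05 there were 5 members (9.20% of all genes), and DESeq2 called 1 (3.70% of all genes). With the 3 immunoglobulin-rich or rRNA-rich libraries left out 0 were called. Ttk had one of the smallest p, at 28.8, 37.0, 31.7 and 18.1 CPM in WT MPP3 (log2 difference 1.2, SE 0.371, edgeR adjusted p = 0.179). Ube2c and the cyclin Ccnb1 lay slightly lower in MPP3, at -0.29 and -0.27, with standard errors larger than the difference. All 3 WT comparisons share libraries, so they do not count as separate evidence for one order.

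Lineage markers also differed between the same groups. In WT MPP2 against WT LT-HSC the summed MPP2 markers (5 genes) were 624 to 2174 against 241 and 298 CPM, and 4 of the 5 were fitted higher. The summed MPP3 markers (5 genes) were 432.7 to 4288 against 84.5 and 103.2 CPM, and 5 of the 5 were fitted higher in WT MPP2. The erythroid list (11 of 13 genes tested) summed to 3173 and 3395 CPM in WT LT-HSC, 2634 to 6432 in WT MPP2 and 806 to 1625 in WT MPP3. The B cell list (12 of 14 tested) reached 40643 CPM in WT MPP2, and the neutrophil list (13 genes) reached 4684 CPM in WT LT-HSC 2. The T and NK cell list (8 of 12 tested) summed to 137.9 and 153.8 CPM in WT LT-HSC, 574.4 to 1153.6 in WT MPP2 and 534.1 to 612.4 in WT MPP3, and 1 of its genes, Nkg7 of cytotoxic granules, was called higher in WT MPP2 than in WT LT-HSC, although Cd3e of T cells stayed at 0.775 CPM or less in every library. Among KO libraries the neutrophil list reached 16144.8 CPM in KO MPP2 1. The summed MPP2 markers were 520.7 to 947.1 CPM in KO LT-HSC, above both WT LT-HSC libraries. They overlapped KO MPP2, at 782.2 to 2271.4 CPM. The part of these markers and cells in the mitosis results was not tested.

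In KO cells 19 mitosis genes were called higher in MPP2 than in LT-HSC. Between KO MPP2 and KO LT-HSC all 51 members were fitted higher in MPP2, with a median log2 difference of 1.37 (all genes tested 0.04), and the 19 were called higher and 0 lower by edgeR, where 0.758% of all genes were called higher. For 47 members each MPP2 library lay above each LT-HSC library, against 6.59% of all genes. The overlapping ones were Cenpk, Kif20b, Kif23 and Smc4. The count of calls fell to 2 when KO LT-HSC 1 or KO MPP2 2 was left out, to 3 without KO LT-HSC 3, to 8 without KO MPP2 3 and to 12 without KO MPP2 4. It was 33 with the 3 immunoglobulin-rich or rRNA-rich libraries left out and 38 by DESeq2 (3.24% of all genes higher), and 3 when only these groups were fitted. The median was 1.28 among title numbers of 64 or less and 1.69 among those of 162 or more, where LT-HSC has 1 library.

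Kif15 had the smallest p of the members. It was at 27.7, 37.3 and 23.3 CPM in KO LT-HSC and at 89.9, 131.8, 86.1 and 80.7 CPM in KO MPP2, a log2 difference of 1.72 (SE 0.261, edgeR adjusted p = 0.00184). Kif4 was at 9.48, 17.9 and 17.5 CPM against 39.3, 65.8, 39.9 and 49.1 CPM, 1.70 higher (SE 0.291, edgeR adjusted p = 0.00450). Tpx2, which activates Aurora A on the spindle, was at 52.7, 82.4 and 22.1 CPM against 121.4, 242.9, 160.7 and 146.3 CPM, 1.68 higher (SE 0.347, edgeR adjusted p = 0.0165). The 2 groups did not overlap for any of these 3 genes, and KO MPP2 2 was the highest library for each. All 4 passenger complex genes were called: Aurkb, its kinase (1.62), Birc5 (1.52), Cdca8 (1.42) and its scaffold Incenp (1.39). Of the 6 spindle motors 3 were called, of the 10 kinetochore genes 3, of the 7 chromosome structure genes 3, among them Top2a, the topoisomerase that untangles chromatids (1.63), and of the 3 genes of anaphase control 0, although Ube2c had the largest difference of all members (2.02, SE 0.568, edgeR adjusted p = 0.0765).

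Between KO MPP3 and KO MPP2, 50 of 51 members were fitted lower in MPP3, the exception being Kif23 (0.23). The median log2 difference was -0.82 (all genes tested -0.02), and 0 members were called by edgeR, where 0.526% of all genes were called lower. At an unadjusted p under 0.05 there were 34 members (14.5% of all genes in either direction), and DESeq2 called 7 lower (2.32% of all genes lower). Each KO MPP3 library was below each KO MPP2 library for 12 members, against 3.59% of all genes. Anln, the scaffold of the contractile ring, was at 48.9, 77.9, 35.6 and 60.8 CPM in KO MPP2 and 25.2, 24.2, 32.2 and 26.4 CPM in KO MPP3 (-1.05, SE 0.295, edgeR adjusted p = 0.105). Nuf2, the partner of Ndc80, was at 105.8 to 162.7 CPM in KO MPP2 and at 69.5, 27.0, 90.8 and 49.4 CPM in KO MPP3 (-1.11, SE 0.315, edgeR adjusted p = 0.109). Both genes were separated between the groups, and KO MPP3 3 was the highest MPP3 library in both. Without that library 5 members were called lower, and with the 3 immunoglobulin-rich or rRNA-rich libraries left out 0 were, at a median of -0.58. The median was -1.23 among title numbers of 64 or less and -0.41 among those of 162 or more.

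KO MPP3 stood higher than KO LT-HSC for 50 of 51 members, Prc1, which cross-links midzone microtubules, being the exception (-0.07). The median log2 difference was 0.59 (all genes tested 0.03). By edgeR 3 members were called higher, Kif15, Kif4 and Ect2, where 1.09% of all genes were. DESeq2 called 7 higher (3.53% of all genes), and 9 members had no overlap, against 5.28% of all genes. Ect2, the exchange factor that turns on RhoA at the cleavage furrow, was at 34.0, 32.4 and 11.1 CPM in KO LT-HSC and at 94.8, 44.0, 96.0 and 70.1 CPM in KO MPP3 (1.56, SE 0.415, edgeR adjusted p = 0.0498). Kif15 was at 66.8, 85.8, 78.7 and 46.6 CPM in KO MPP3 (1.24, SE 0.256, edgeR adjusted p = 0.0104). Both groups were separated for each gene, with the lowest KO LT-HSC library being replicate 3. Leaving out 1 library left 0 to 2 members called (0 when replicate 1 or 3 of KO LT-HSC was omitted, and 1 for replicate 2 of KO LT-HSC and for KO MPP3 1, KO MPP3 3 or KO MPP3 4). Leaving out the 3 immunoglobulin-rich or rRNA-rich libraries also left 1. Among libraries with title numbers of 64 or less the median was -0.03 with 23 of 51 higher, and among those of 162 or more, where LT-HSC has 1 library, it was 1.21 with 51 higher.

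Between KO and WT 0 mitosis genes passed the threshold in any population, with all libraries or with the 3 immunoglobulin-rich or rRNA-rich ones left out. In LT-HSC, 44 of 51 members were fitted higher in KO, with a median log2 difference of 0.29 (all genes tested 0.00). By edgeR 0 were called, where 0.00474% of all genes were, 2 had an unadjusted p under 0.05 (2.43% of all genes), and DESeq2 called 0 (0.136% of all genes). The members of smallest p were Cenph, at 42.8, 55.4 and 43.2 CPM in KO against 27.0 and 34.7 in WT (0.61, SE 0.243, edgeR adjusted p = 1.0), Ttk, at 24.5, 33.6 and 12.5 CPM in KO (0.90, SE 0.381), and Ndc80, at 55.9, 49.7 and 41.0 CPM in KO against 28 and 34.6 in WT (0.64, SE 0.322). Cenph and Ndc80 were separated between genotypes and Ttk was not. In all, 10 members were separated with KO above, against 7.53% of all genes, and Kif23 with KO below, against 10.8% of all genes. Of the KO libraries, replicate 2 was the highest for 40 members and replicate 3 the lowest for 35. Leaving out the first of these gave a median of 0.07 with 29 members higher, and leaving out the other gave 0.51 with 49 higher, the value among title numbers of 64 or less as well.

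In MPP2 the fitted differences between genotypes were small and of either sign. KO was fitted higher for 37 members, with a median log2 difference of 0.12 (all genes tested 0.01) and single values from -0.52 to 0.54. By edgeR 0 members were called (0.0142% of all genes), 0 had an unadjusted p under 0.05 (6.72% of all genes), DESeq2 called 0 (0.169% of all genes), and 0 were separated with KO above (1.43% of all genes). Cenpk, a subunit of the constitutive centromere network, had the smallest p, at 134.8, 140.2, 157.2 and 104.6 CPM in KO and 280.7, 153.5, 151.7 and 184.4 CPM in WT (-0.52, SE 0.293, edgeR adjusted p = 0.799). Bub1b, the checkpoint protein BubR1, was at 74.5, 131.1, 99.1 and 107.1 CPM in KO and 66.5, 99.1, 80.2 and 57.5 CPM in WT (0.44, SE 0.317, edgeR adjusted p = 0.871). Both genes overlapped between genotypes. KO MPP2 2 was the highest of its group for 44 members, and without it the median turned to -0.09 with 17 members higher. Without the immunoglobulin-rich KO MPP2 1 and the 2 other such libraries it was 0.23.

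In MPP3 all 51 members were fitted higher in KO, with a median log2 difference of 0.54 (1.46-fold, all genes tested 0.00). By edgeR 0 were called, where 0.00948% of all genes were, with a smallest adjusted p of 0.880, and DESeq2 called 0 (0.195% of all genes). At an unadjusted p under 0.05 there were 19 of the 51 members, where 5.62% of all genes passed. The direction was shared, but the members are measured in the same libraries and vary with them. KO MPP3 3 was the highest of its group for 42 members and KO MPP3 2, the library rich in ribosomal RNA, the lowest for 38. Among the WT libraries, WT MPP3 3 was highest for 31 members and WT MPP3 4 lowest for 32. Without KO MPP3 3 the median was 0.33 with 47 members higher, and with the 3 immunoglobulin-rich or rRNA-rich libraries left out it was 0.79 with 51 higher. Among title numbers of 64 or less it was 0.26 with 38 higher, and among those of 162 or more 0.77 with 51 higher.

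Incenp was the only member whose KO and WT MPP3 libraries did not overlap, a pattern that 1.07% of all genes showed in this direction. It was at 56.1, 84.9, 84.3 and 69.7 CPM in KO and at 28.2, 48.3, 41.8 and 27.0 CPM in WT (log2 difference 1.02, SE 0.259, unadjusted p = 0.000874, edgeR adjusted p = 0.880). In contrast to most members its level in KO MPP3 2, the library rich in ribosomal RNA, was the highest of the group, as for 5 members in all. Espl1 was at 11.4, 32.7, 20.4 and 13.5 CPM in KO against 7.13, 5.98, 13.9 and 5.90 CPM in WT (1.24, SE 0.364, edgeR adjusted p = 0.880), and Kif15 at 66.8, 85.8, 78.7 and 46.6 CPM against 42.7, 38.8, 48.9 and 32.5 CPM (0.77, SE 0.230, edgeR adjusted p = 0.880). For Espl1 2 KO libraries lay within the WT range, and for Kif15 1 did. KO MPP3 2 was the highest KO MPP3 library for Espl1 and Kif15 too. Cdk1 was at 204.3, 73.4, 307.1 and 187.8 CPM in KO and at 103.6, 150.6, 190.1 and 90.1 CPM in WT (0.53, SE 0.317), with the lowest and the highest value both in KO. By role the median log2 difference was 1.14 for anaphase control, 0.78 for the passenger complex and 0.76 for the cyclins, Cdk1, entry kinases and Foxm1. For spindle assembly factors it was 0.72, and for spindle motors 0.56. It was 0.46 for the kinetochore, 0.43 for the checkpoint, and 0.34 for both the midzone and chromosome structure, where Smc4 had the smallest value (0.07).

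**Figure D5:**
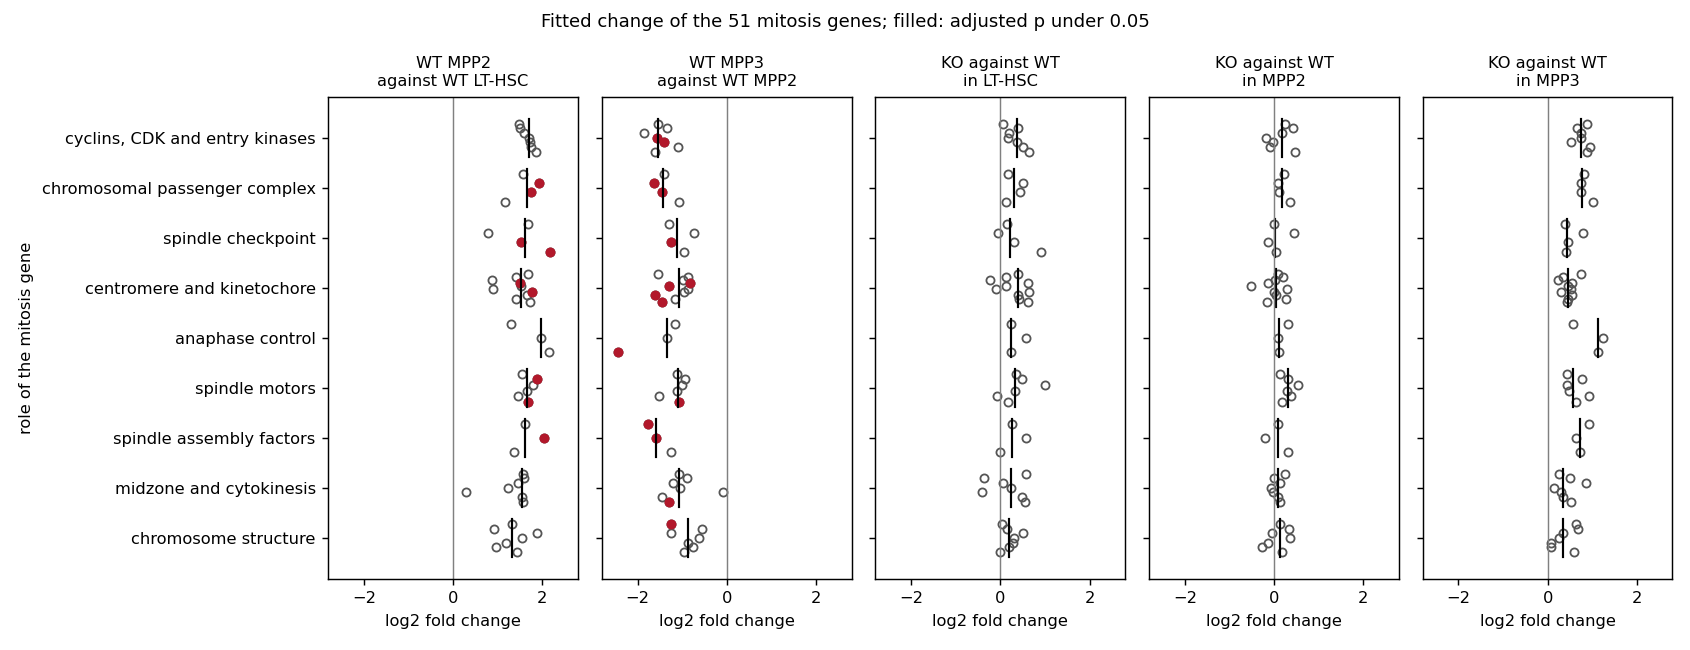
Fitted log2 fold change (x axis) of each of the 51 mitosis genes, by role (y axis), in 5 comparisons. Circles are genes, filled where the edgeR adjusted p was under 0.05, and black lines are role medians. WT MPP2 is above WT LT-HSC for all genes with 9 filled, WT MPP3 is below WT MPP2 with 15 filled, and no gene is filled in the 3 comparisons of KO with WT, where the medians are 0.29, 0.12 and 0.54.

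The KO effects were set against each other by interaction terms. The effect in MPP3 exceeded that in MPP2 for 49 of 51 members, with a median log2 difference of 0.41. By edgeR 0 members were called, as were 0% of all genes, 4 had an unadjusted p under 0.05 (Cenph, Cenpk, Espl1 and Nusap1; 4.47% of all genes), and DESeq2 called 0 (0.0726% of all genes). Between MPP3 and LT-HSC the median was 0.29 with 38 members higher, 0 called, 1 at an unadjusted p under 0.05 (2.47% of all genes) and 0 by DESeq2 (0.139% of all genes). Between MPP2 and LT-HSC it was -0.17 with 19 higher, 0 called, 1 at an unadjusted p under 0.05 (3.60% of all genes) and 0 by DESeq2 (0.116% of all genes). With the 3 immunoglobulin-rich or rRNA-rich libraries left out 0 members were called in any of these terms, and the medians were 0.68, 0.49 and -0.12 in the same order. The difference between the effects in MPP3 and MPP2 was 0.05 with 29 of 51 positive among title numbers of 64 or less, and 0.68 with 50 positive among those of 162 or more.

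Within MPP2, levels also varied with the numbers in the library titles, which split each group of 4 into 2 of 64 or less and 2 of 162 or more. All 4 libraries of low number lay above all 4 of high number for 7 members: Bub1, Smc4, Top2a, Kif11, Ncapg, Kif23 and Ect2, with ratios of means from 1.49 (Bub1, a checkpoint kinase) to 2.07 (Ect2). That is 7 of 51, where 7.45% of all genes were separated in this direction. The other 44 overlapped, as did all 51 in MPP3, where 11.9% of all genes were separated in either direction. Lineage markers differed between the same MPP2 libraries. The B cell sum was 19720.5 to 750245.1 CPM in the 4 of low number and 52.4 to 96.4 CPM in the 4 of high number, and immunoglobulin took 2.78% to 48.0% of counts against 0.00561% or less. Pf4, a platelet gene, was at 52.1 to 115.7 CPM in those of low number and at 612.2 to 1221.9 in those of high number, and the summed MPP3 markers were 2347 to 4288 against 258 to 2205 CPM. Their part in the mitosis differences was not tested.

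Genes of S phase, when DNA is copied, had smaller median differences than the mitosis genes in 5 of the 6 comparisons of populations. The exception was WT MPP3 against WT LT-HSC, where their median was 0.52 and that of the mitosis genes 0.26, and the difference between the lists was not tested. The median log2 difference of 40 S phase genes was 0.94 between WT MPP2 and WT LT-HSC and -0.37 between WT MPP3 and WT MPP2, where the mitosis genes had 1.56 and -1.21. The S phase sum was 5395 to 7572 CPM in WT MPP3 and 7113 to 7776 CPM in WT MPP2, which overlapped. The ratio of the mitosis sum to the S phase sum was 1.0 to 1.21 in WT MPP2 and 0.473 to 0.768 in WT MPP3, with no overlap, and 0.655 to 0.957 in KO MPP3, which overlapped WT MPP3. In KO MPP2 it ran from 0.828 to 1.52, with the libraries of low title number at 1.40 and 1.52 and the others at 0.943 and 0.828. In LT-HSC it was 0.657 and 0.818 in WT and 0.554 to 0.805 in KO.

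A separate list of 75 other mitosis genes, drawn up by their known role with earlier results of these data known, had medians of the same sign and smaller size than the 51 in all 6 comparisons of populations. In WT MPP2 against WT LT-HSC 69 of 75 were fitted higher (median 1.03) with 6 called higher and 0 lower, where 0.365% of all genes were called higher. In WT MPP3 against WT MPP2 the median was -0.82 with 15 called lower, where 0.981% of all genes were. Cenpt, a kinetochore subunit of that list, went the other way and was called lower in MPP3 than in LT-HSC, by edgeR, in both WT (-1.91, SE 0.303, adjusted p = 0.0027) and KO (-1.14, SE 0.276, adjusted p = 0.0297). In KO MPP2 against KO LT-HSC 21 were called higher, where 0.758% of all genes were. Among them were Ccnf, a cyclin that recruits substrates to a ubiquitin ligase (1.88, SE 0.337, edgeR adjusted p = 0.00599), and Nek2, a centrosome kinase (2.01, SE 0.412, edgeR adjusted p = 0.0159). In KO against WT MPP3, 65 of 75 were fitted higher (median 0.35) and 0 were called, and in KO against WT MPP2 the median was 0.13, where the 51 had 0.12. Of 24 regulators of the DREAM, E2F and RB pathway, 0 were called in any WT comparison, and E2f8, a repressor of E2F targets, was called higher in KO MPP2 against KO LT-HSC (2.47, SE 0.437, edgeR adjusted p = 0.00536). Of 18 genes of G1 control and quiescence, 2 were called higher and 3 lower there. Cdk6, a G1 kinase, was higher (1.54, SE 0.246, edgeR adjusted p = 0.00234), as was Cdkn2c (1.36, SE 0.33, edgeR adjusted p = 0.04). Cdkn1c, the cyclin-dependent kinase inhibitor p57 that helps keep LT-HSC quiescent, was lower (-3.66, SE 0.635, edgeR adjusted p = 0.00481). Cdk6 and Cdkn1c were also called by edgeR in WT MPP2 against WT LT-HSC (1.39, adjusted p = 0.0328, and -2.94, adjusted p = 0.0446). In MPP3 against LT-HSC both were called in the same directions in WT and in KO. Between genotypes 0 genes of these lists were called in any population.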

How the data were processed

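The deposited table holds counts of reads per gene for 54446 Ensembl identifiers in 21 libraries, made by the authors. Per the submitters' processing notes the tools and builds named are STAR and mm10; for the annotation, the counting program and its strand setting, names were not given in the sources used here. Per the labels' protocols, libraries were made with Nextera XT. Symbols, coordinates and exon lengths came from GENCODE M21 (54409 identifiers matched, 37 did not), and promoters from RefSeq (GRCm38.p6).

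From the counts, genes were kept with filterByExpr (minimum count 10, 6 groups), scaled by TMM and fitted together in all 21 libraries with edgeR 4.0.16 (R 4.3.3) by the quasi-likelihood test, with an adjusted p (Benjamini-Hochberg) under 0.05 as the call. The fit was tested on simulated data. DESeq2 1.42.0, other scaling, no filter, fits of single groups, terms for replicate number, assumed mouse or title number, subsets by title number and the omission of single libraries were alternatives. The assumed mouse was set by genotype and replicate number, since the labels name no mouse. Leaving out the 3 immunoglobulin-rich or rRNA-rich libraries was added after seeing the data. CPM are counts per 1000000 of TMM-scaled library size.

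The main fit left libraries unpaired. In an alternative with a replicate block, replicate numbers were taken to pair KO with WT in MPP2 and MPP3. Same-numbered libraries there deviated together from their group means (correlation 0.298 to 0.343 and 0.114 to 0.217 over genes). Between KO MPP3 and KO MPP2 the same-numbered correlations were 0.0641 to 0.52. Same-numbered libraries also share a range of title numbers, so these correlations cannot tell pairing from that split. The pairing comes from the data and not from the labels. Named genes are the member of highest mean CPM of each role and up to 3 members of smallest p in each comparison, beside those that went against the list. The members and gene lists were chosen with earlier results of these data known.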

Additional observations from a re-analysis of the deposited data

Results flagged for a closer look

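Of 92 gene and group combinations of 4 libraries checked, 3 held a library far from the other 3 by Dixon's criterion. Chance meets that criterion in about 1 in 20, and 3 of 92 is a smaller share. Cdk1 in KO MPP2 2 was at 457.3 CPM, with the next library at 325.8 CPM. Bub1b in KO MPP3 3 was at 113.3 CPM, with the next at 71.1 CPM. Espl1 in WT MPP3 3 was at 13.9 CPM, with the next at 7.13 CPM. KO MPP2 2, KO MPP3 3 and WT MPP3 3 were also the libraries in which most members were highest in their group (44, 42 and 31 of 51).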

How the results depend on the processing

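The members' median kept its direction in both WT comparisons with MPP2 and in KO MPP2 against KO LT-HSC under every alternative run. Members called were, in the order WT MPP2 against WT LT-HSC, WT MPP3 against WT MPP2, KO MPP2 against KO LT-HSC and KO MPP3 against KO LT-HSC, 40, 34, 38 and 7 by DESeq2. With the 3 immunoglobulin-rich or rRNA-rich libraries left out they were 18, 27, 33 and 1. Leaving out 1 library gave 0 to 9, 1 to 12, 2 to 21 and 0 to 2. For WT MPP3 against WT LT-HSC, DESeq2, the replicate block and the title-number term each called 1. For KO MPP3 against KO MPP2, DESeq2 called 7, the replicate block 1 and leaving out 1 library 0 to 5. The replicate block gave 18 and 28 in the first and second of these comparisons and 9 in KO MPP3 against KO LT-HSC, and a block by assumed mouse 5 in the first and 7 in the last. That block took libraries of the same genotype and replicate number as 1 mouse, which the labels do not state. By title number, KO LT-HSC 3 instead stands next to the last replicates of KO MPP2 and KO MPP3. Both blocks may therefore place KO LT-HSC 3 with libraries of another mouse. Their counts of 9 and 7 in KO MPP3 against KO LT-HSC carry that doubt. The title-number term gave 14 and 27 in the first and second. Fits of only the compared groups gave 3 and 0 in the KO comparisons with LT-HSC, and RLE factors 1 in the last. Within title numbers of 64 or less there were 0, 3 and 0 calls in the second to last comparisons, and within those of 162 or more 6, 12 and 8. Shares of all genes called are given above only for the main fit and DESeq2, so these shifts may not concern the members alone. Their cause was not tested. Paired or not, 0 members were called between KO and WT in MPP2, MPP3 and LT-HSC. The lowest count of any member in a library was 39, and WT LT-HSC had 2 libraries. What limits the calls was not tested.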
